A study of Mus musculus with 9 samples.

Results

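The genes described here are those of the amino acid and stress response run by the transcription factor ATF4, together with the enzymes of serine synthesis and of one-carbon (folate) metabolism. They were taken from a list of 34 gene symbols, and the array annotation named a probe set for 33 of them, out of 18193 genes named in all. Pycr1 is not analysed here. A probe set is the group of short probes that reads a transcript, and the brightest probe set stood for each gene. Probe sets marked as cross-hybridising were passed over unless nothing else read the gene, as for Phgdh.

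ATF4 is made when the translation factor eIF2 is phosphorylated by a sensor of amino acid shortage, endoplasmic reticulum (ER) stress, viral RNA or haem shortage. Its own messenger RNA is then translated better while most others are translated less, and with partners of the C/EBP family it switches on genes for amino acid synthesis, amino acid uptake and tRNA charging. Serine made by PHGDH, PSAT1 and PSPH feeds the SHMT and MTHFD enzymes, which supply carbon units for nucleotide synthesis. Activated T cells are known to use this supply when they divide.

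The study hybridised RNA of mouse CD4 T cells to 9 Affymetrix arrays, 3 per group, which the series' design text calls biological replicates. In the platelet-TGFβ group (pltTGFβ_iTreg), sorted spleen CD4 cells without the green Foxp3 reporter were cultured with freeze-thaw lysate of wild-type C57BL/6 platelets as the source of TGFβ. In the purified-TGFβ group (purTGFβ_iTreg) such cells received purified TGFβ1 at 5 ng/ml. Cultures of both kinds of induced regulatory T cell (iTreg) held IL2 at 100 U/ml, CD28 antibody at 1 µg/ml and CD3 antibody at 2.5 µg/ml, and ran 72 hours. The third group, Tconv, is of conventional T cells. Its arrays are recorded with the same IL2, antibody and 72-hour settings as the iTreg arrays. However, a treatment note on all 9 samples has Tconv cells receiving TGFβ1, so how they were cultured is not settled by the labels. All T cells came from Foxp3EGFP reporter mice on the C57BL/6 (B6) background, per the labels. The age of the mice, the TGFβ1 content of the lysate and any sorting of the iTreg after culture are not given in the sources used here.

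Values are log2 expression after Robust Multichip Analysis (RMA), so a difference of 1 is a doubling of signal, and RMA compresses the folds of dim genes. A gene was called higher or lower at an adjusted p under 0.1 and a log2 change beyond 0.5 in either direction, the cutoffs in the series' design text, from a limma model of all 9 arrays. The T cell genes Cd3d, Cd3e, Cd3g, Cd4 and Thy1 had group means between 7.95 and 12.80. Only Cd4 among them was called, lower than in Tconv with platelet and purified TGFβ (log2 changes of -0.62 and -0.72). Cd3d (-0.42 and -0.43) and Cd3e (-0.42 and -0.37) also read lower, within the fold cutoff. Foxp3, which defines regulatory T cells, averaged 3.86 in platelet-TGFβ iTreg, 3.77 in purified-TGFβ iTreg and 3.79 in Tconv, so its probe set did not mark the iTreg. The 5 other regulatory T cell markers did not all move one way with platelet and purified TGFβ. Il2ra (log2 changes of 1.73 and 1.68), Ctla4 (2.36 and 1.86), Ikzf2 (2.48 and 3.00) and Ikzf4 (1.25 and 1.76) were called higher than in Tconv, while Tnfrsf18 (-0.63 and -1.34) was called lower. The log2 values of the platelet markers Pf4, Ppbp, Gp9, Itga2b, Gp1bb and Treml1 summed to 26.5 to 27.2 per platelet-TGFβ array, 26.2 to 26.9 per purified-TGFβ array and 28.4 to 29.5 per Tconv array. Against Tconv Itga2b alone of these was called, lower in both cultures (-0.61 and -0.63). With platelet against purified TGFβ none of the 6 was called, and Pf4 and Ppbp each read higher by 0.25 (95% intervals 0.03 to 0.48 and 0.03 to 0.47, adjusted p = 0.247 and 0.254 in limma). B cell markers (3 of 4 measured) summed to 11.3 to 12.2 per platelet-TGFβ array, 11.6 to 12.4 per purified-TGFβ array and 13.4 to 13.6 per Tconv array. CD8 and NK cell markers (3 of 4) summed to 13.4 to 13.8, 13.8 to 14.1 and 15.1 to 15.2, and myeloid markers (4 of 4) to 15.6 to 16.1, 15.5 to 16.2 and 16.3 to 17.2. Of these 10 genes only Cd79b (-1.65 and -1.46) and Cd8b1 (-1.04 and -0.98) were called lower against Tconv, and the myeloid genes lay between -0.49 and 0.02. Their part in the results below was not tested. Xist, transcribed in female cells, averaged 3.94 and 3.61 in the platelet- and purified-TGFβ iTreg and 10.81 in Tconv, while Y-linked Eif2s3y averaged 8.95, 9.01 and 2.70 in the same order of groups. Donor sex and culture can therefore not be told apart in any comparison with Tconv.

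Against Tconv most of these genes were lower in both iTreg cultures. In platelet-TGFβ iTreg 23 of the 33 genes fell, none rose and 10 were not called, where 14.7% of all 18193 genes were called lower and 13.9% higher. In purified-TGFβ iTreg 22 fell, 1 rose and 10 were not called, where 14.9% of all genes were called lower and 14.5% higher. The median log2 change of the 33 genes was -0.84 with platelet TGFβ and -0.74 with purified TGFβ, beside -0.16 and -0.17 over all genes. The single gene that rose was Nupr1. At an unadjusted p under 0.05 in limma 2 genes were higher with platelet TGFβ, Cebpg and Nupr1, both within the fold cutoff (20.1% of all genes were higher at that p). With platelet TGFβ 28 of the genes read below every Tconv array on all 3 arrays (38.4% of all genes did) and 2 read above (20.7% of all genes). With purified TGFβ 29 read below (41.6% of all genes) and 3 above (21.1% of all genes). Both comparisons use the same Tconv arrays. The genes were chosen with earlier results of these data known, so shares set beside all genes, here and below, describe and do not test. Less RNA per cell and fewer cells that carry the RNA cannot be told apart in such bulk samples.

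**Figure D1:**
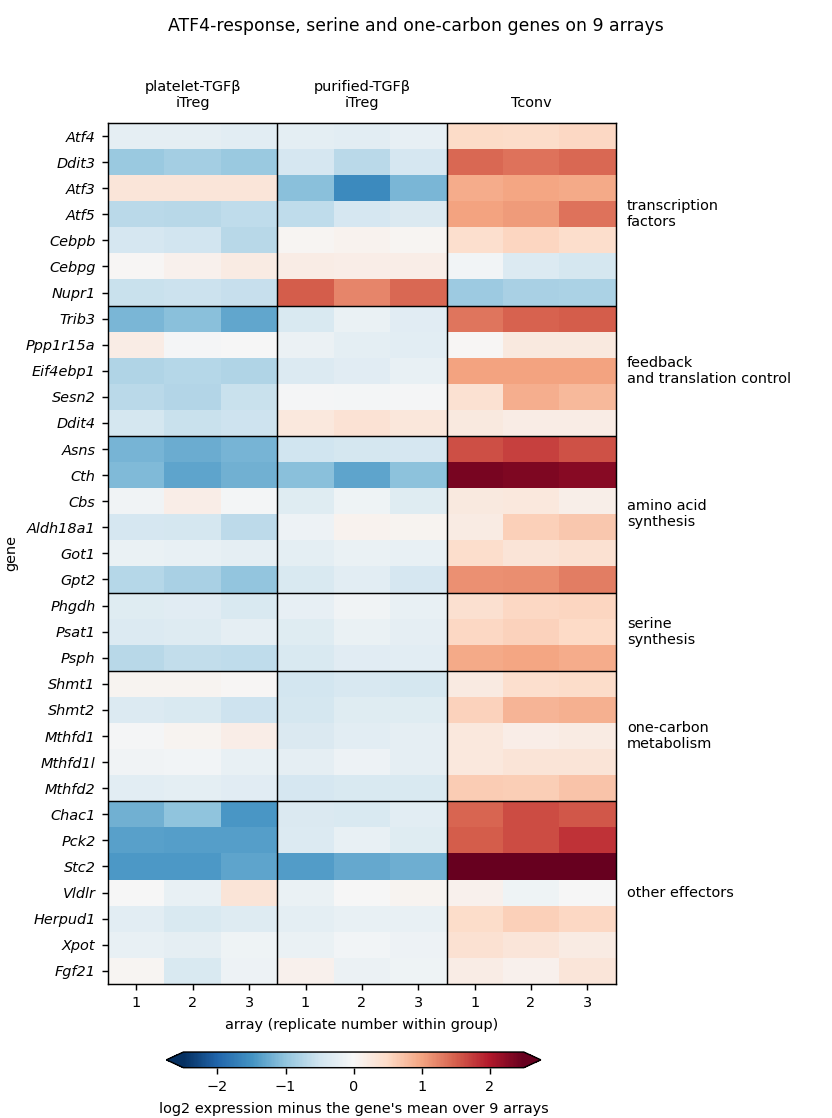
Each row is a gene and each column an array (platelet-TGFβ iTreg, purified-TGFβ iTreg, Tconv); colour is the log2 expression minus that gene's mean over the 9 arrays, and lines part the functional groups. The Tconv columns are red in most rows, while Nupr1 is red in the purified-TGFβ columns and the 3 Ddit4 platelet columns (10.09 to 10.20) are the blue ones of that row.

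**Figure D2:**
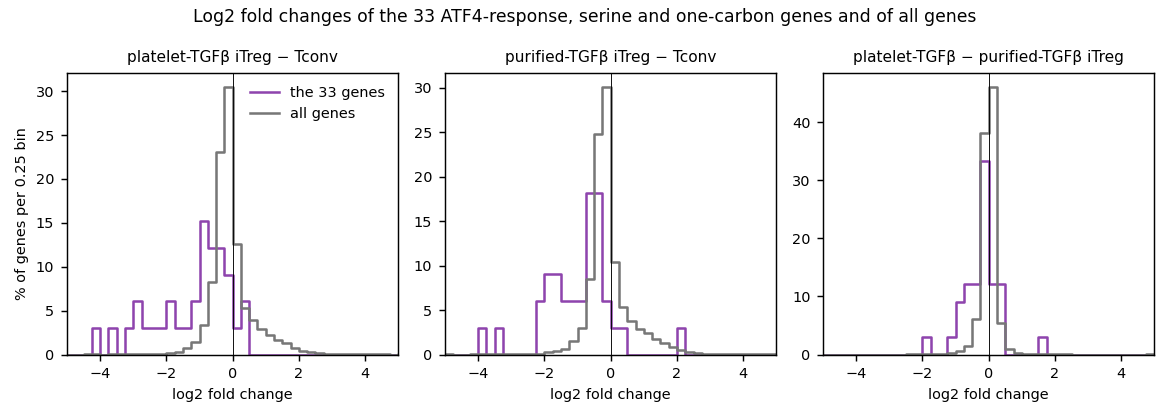
The share of genes in each 0.25-wide bin of log2 fold change is drawn for the 33 genes and for all 18193 genes, a panel per comparison. Against Tconv the 33 genes sit left of all genes, with medians of -0.84 and -0.74 against -0.16 and -0.17, and between the iTreg cultures their median was -0.11 against 0.01.

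ATF4 with a C/EBP partner is known to bind a composite element with the core TGATGNAA. This core was searched on both strands of the RefSeq promoter windows (250 bases before to 50 after a transcript start, build GRCm38.p6), which were found for 31 of the 33 genes, all but Cth and Eif4ebp1. It occurred in windows of 10 of these 31 genes (32.3%), beside 465 of 14368 genes on the array that have a window (3.24%). Some of the 33 genes are on the list because they are textbook ATF4 targets, so the share is a description and not separate evidence, and a match is letters only, not a binding site. An ER stress element bound by ATF6 was searched only as the exact letters CCAAT and CCACG with 9 bases between them, on both strands. It occurred in no window of these 31 genes and in 20 of the 14368 array genes (0.139%). At that share none would be expected among so few genes, so its absence says little about them. No match of one motif overlapped the other here. The stretches below are shown because they hold the core upstream of the genes that changed most among those with a match, 5′ to 3′ along the gene, with the match in capitals (TTGCATCA and TTACATCA are the core read on the opposite strand).
Pck2: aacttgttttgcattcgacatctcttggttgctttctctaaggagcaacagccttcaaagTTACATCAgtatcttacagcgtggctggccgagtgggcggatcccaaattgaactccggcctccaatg
Asns: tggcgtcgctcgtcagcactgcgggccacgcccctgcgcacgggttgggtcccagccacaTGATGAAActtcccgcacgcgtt
Chac1: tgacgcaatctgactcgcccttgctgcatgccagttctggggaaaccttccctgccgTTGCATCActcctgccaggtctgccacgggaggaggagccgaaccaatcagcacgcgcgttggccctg
Nupr1: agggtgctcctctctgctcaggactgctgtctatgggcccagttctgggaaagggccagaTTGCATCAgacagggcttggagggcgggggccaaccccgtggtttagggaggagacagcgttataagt
Atf3: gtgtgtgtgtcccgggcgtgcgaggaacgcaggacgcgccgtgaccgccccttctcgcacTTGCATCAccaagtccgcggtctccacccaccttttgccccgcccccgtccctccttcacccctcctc
Herpud1: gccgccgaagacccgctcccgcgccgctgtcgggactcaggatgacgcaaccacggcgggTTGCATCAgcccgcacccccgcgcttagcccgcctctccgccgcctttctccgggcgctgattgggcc
On the plus strand lie Pck2 (chr14:55540103-55540230), Chac1 (chr2:119350992-119351116), Herpud1 (chr8:94386257-94386384). On the minus strand lie Asns (chr6:7693210-7693292), Nupr1 (chr7:126625513-126625640), Atf3 (chr1:191183376-191183503). Counted from the base before the start as -1, the match began at -103 in Pck2, -23 in Asns, -193 in Chac1, -110 in Nupr1, -110 in Atf3 and -112 in Herpud1. In Trib3 the core TGATGTAA lay after the start, at bases 15 to 22, on the opposite strand. Got1, Fgf21 and Vldlr also held a match. Nupr1, with the same TTGCATCA as Atf3 at the same distance from its start, rose in purified-TGFβ iTreg, where Atf3 fell. Stc2, which fell furthest, held no such letters in its window.

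Among the transcription factors, Atf4 itself fell by similar amounts in both cultures. Atf4 read 11.56, 11.56 and 11.52 in platelet-TGFβ iTreg, 11.55, 11.52 and 11.58 in purified-TGFβ iTreg and 12.26, 12.25 and 12.30 in Tconv. Every iTreg array lay below every Tconv array, and the iTreg arrays overlapped each other. The fall was 1.65-fold with platelet TGFβ (log2 change -0.73 ± 0.07, SE, adjusted p = 5.67e-06) and 1.65-fold with purified TGFβ (-0.72 ± 0.07, adjusted p = 5.45e-06). The other Atf4 probe sets fell too, by 0.53 and 0.99 with platelet TGFβ and by 0.60 and 1.00 with purified TGFβ on the log2 scale.

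Ddit3, which encodes the ER stress factor CHOP, fell 4.95-fold with platelet TGFβ and 3.78-fold with purified TGFβ, to means of 7.50 ± 0.04 and 7.89 ± 0.14 (SD, n = 3) against 9.81 ± 0.05 in Tconv. Atf5, a stress-induced relative of ATF4, fell 3.48-fold and 3.04-fold. Cebpb, which encodes a binding partner of ATF4, fell 2.00-fold with platelet TGFβ, but its change of -0.40 with purified TGFβ was below the fold cutoff. Cebpg, another partner, changed by 0.40 and 0.46 and was not called in either culture. Without Tconv replicate 1 Cebpg was called higher, at 0.51 with platelet TGFβ and 0.56 with purified TGFβ, and its other probe sets stayed between -0.05 and 0.19.

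Atf3 and Nupr1 set the cultures apart. Atf3, a stress-induced repressor, read 7.35 on each platelet-TGFβ array, then 6.00, 5.46 and 5.90 with purified TGFβ and 7.97, 8.03 and 7.99 in Tconv. The 3 groups did not overlap, and the purified-TGFβ arrays were the lowest. Atf3 thus fell 1.56-fold against Tconv with platelet TGFβ (log2 change -0.65, adjusted p = 0.00102) and 4.63-fold with purified TGFβ (-2.21, adjusted p = 5.14e-08). Nupr1, which encodes a small stress-induced nuclear protein, read 6.17, 6.18 and 6.14 with platelet TGFβ, 8.24, 7.95 and 8.16 with purified TGFβ and 5.81, 5.91 and 5.93 in Tconv. It was the gene that rose: 4.71-fold with purified TGFβ (log2 change 2.24 ± 0.09, adjusted p = 5.49e-09), while with platelet TGFβ its change of 0.28 was not called. A cross-hybridising Nupr1 probe set gave 1.78 and 0.09.

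**Figure D3:**
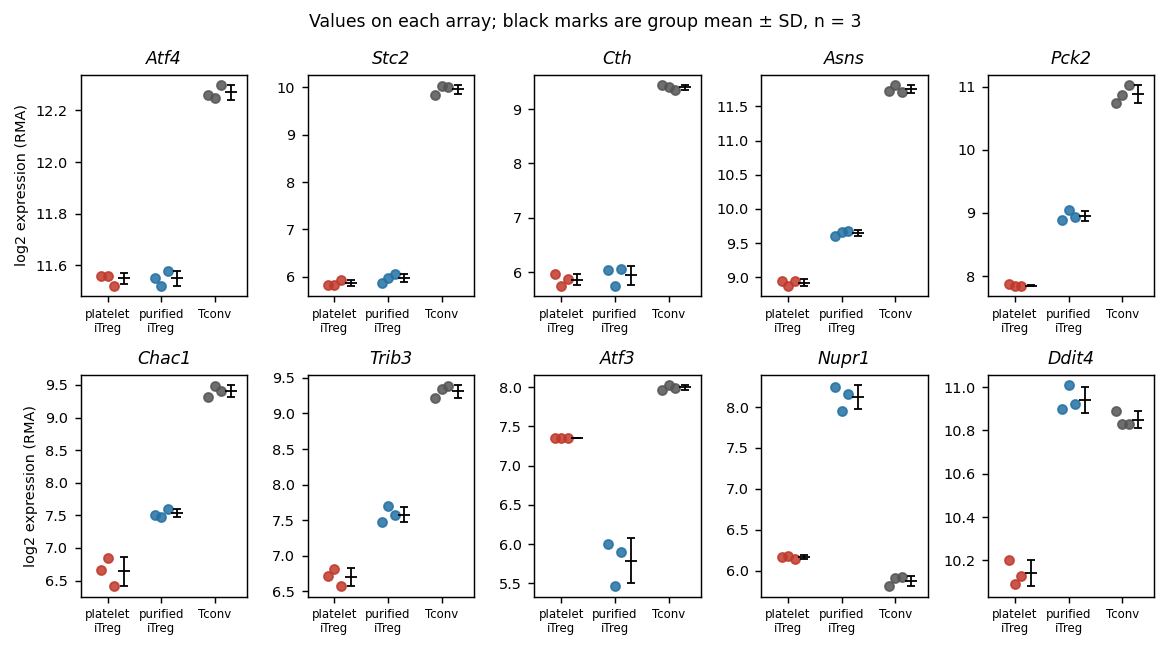
Points are log2 expression on each array for 10 genes, platelet-TGFβ iTreg at the left, purified-TGFβ iTreg in the middle and Tconv at the right, with the group mean and SD (n = 3) in black; the vertical scales differ between panels and do not start at 0. For Atf4, Stc2 and Cth the iTreg arrays overlap, for Asns, Pck2, Chac1 and Trib3 the platelet-TGFβ arrays lie below the purified-TGFβ arrays, and for Nupr1 the purified-TGFβ arrays are the high ones.

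The genes that restrain the response, translation or growth signalling mostly fell: 4 of 5 with platelet TGFβ and 3 of 5 with purified TGFβ, where 14.7% and 14.9% of all genes were called lower. Trib3 encodes a pseudokinase that binds ATF4 and damps it. It read 6.72, 6.82 and 6.57 with platelet TGFβ, 7.48, 7.70 and 7.58 with purified TGFβ and 9.21, 9.34 and 9.39 in Tconv, in 3 bands without overlap. The falls were 6.10-fold (log2 change -2.61 ± 0.10, adjusted p = 5.00e-09) and 3.32-fold (-1.73 ± 0.10, adjusted p = 5.60e-08). Eif4ebp1, which encodes the translation repressor 4E-BP1, read 9.24 to 9.29 with platelet TGFβ, 9.65 to 9.81 with purified TGFβ and up to 11.01 in Tconv, falls of 3.37-fold and 2.42-fold. A bright cross-hybridising probe set fell too, by 2.06 and 1.52 on the log2 scale. A dim Eif4ebp1 probe set, at -0.34 and -0.29, was not called.

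Sesn2, which encodes a leucine sensor upstream of the growth kinase mTORC1, fell by 1.35 with platelet TGFβ and by 0.74 with purified TGFβ on the log2 scale. Its dimmer probe set fell by 0.70 with platelet TGFβ and was not called with purified TGFβ (-0.38). Ddit4 encodes REDD1, an inhibitor of mTORC1, and read 10.20, 10.09 and 10.13 with platelet TGFβ, 10.90, 11.01 and 10.92 with purified TGFβ and 10.89, 10.83 and 10.83 in Tconv. Only the platelet-TGFβ arrays were low, a fall of 1.64-fold (-0.71 ± 0.08, adjusted p = 1.27e-05), and purified TGFβ gave 0.09 (95% interval -0.07 to 0.26). Ppp1r15a, whose product GADD34 brings the phosphatase to eIF2, was not called, at -0.12 and -0.39. Quantile normalization moved the purified-TGFβ value of Ppp1r15a to -0.64, which was then called lower.

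Amino acid synthesis held some of the deepest falls. Asns, which makes asparagine, read 8.95, 8.87 and 8.95 with platelet TGFβ, 9.61, 9.67 and 9.68 with purified TGFβ and 11.72, 11.82 and 11.71 in Tconv. The groups stood apart in that order, 7.10-fold below Tconv with platelet TGFβ (log2 change -2.83 ± 0.07, adjusted p = 3.83e-10) and 4.29-fold with purified TGFβ (-2.10 ± 0.07, adjusted p = 2.50e-09). Cth encodes cystathionine gamma-lyase, the last step of cysteine synthesis from methionine. It read 5.96, 5.75 and 5.87 with platelet TGFβ, 6.03, 5.74 and 6.05 with purified TGFβ and 9.45, 9.41 and 9.35 in Tconv. The iTreg arrays overlapped and lay far below Tconv, by 11.6-fold with platelet TGFβ (log2 change -3.54 ± 0.10, adjusted p = 6.64e-10) and by a log2 change of -3.46 ± 0.10 with purified TGFβ (adjusted p = 3.90e-10).

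Cbs, which acts just before Cth in that pathway, changed by -0.21 and -0.46 and was not called. Both changes missed only the fold cutoff (adjusted p = 0.0906 and 0.00167 in limma). Its array values lay between 4.55 and 5.13 in all groups, near the median of all probe sets (4.53). Without purified-TGFβ replicate 2 Cbs was called lower in that culture, at -0.53. Gpt2, the mitochondrial alanine transaminase, fell 4.07-fold with platelet TGFβ and 2.93-fold with purified TGFβ, and its 4 probe sets gave log2 changes of -3.36 to -2.02 and -2.10 to -1.51. Got1, the cytosolic aspartate transaminase, fell 1.48-fold in each culture.

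Aldh18a1 encodes the enzyme that starts proline synthesis from glutamate. It fell by 0.99 with platelet TGFβ on the log2 scale, with no overlap between the arrays. With purified TGFβ its value of -0.49 missed the fold cutoff, while its 4 other probe sets, all cross-hybridising, were called lower at -0.75 to -0.51. Tconv replicate 1 read 8.79 for Aldh18a1, beside 9.18 and 9.25 on the other Tconv arrays. Without it the purified-TGFβ value was -0.63 and called lower, as it also was without purified-TGFβ replicate 2 (-0.53) or 3 (-0.52).

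All 3 enzymes of serine synthesis fell in both cultures, where 14.7% and 14.9% of all genes were called lower. Phgdh, the entry step from glycolysis, averaged 11.97 ± 0.05 with platelet TGFβ, 12.13 ± 0.07 with purified TGFβ and 12.78 ± 0.08 in Tconv (SD, n = 3). Psat1, the transaminase that follows, averaged 11.07 ± 0.07, 11.13 ± 0.07 and 11.90 ± 0.04 in the same order. These 2 steps fell by 1.75-fold and 1.78-fold with platelet TGFβ and by 1.57-fold and 1.70-fold with purified TGFβ. Psph, the phosphatase that releases serine, fell more, 3.02-fold and 2.39-fold (log2 changes -1.59 ± 0.07 and -1.26 ± 0.07). All Phgdh probe sets named for Phgdh alone can cross-hybridise, and each of the 4 was called lower in both cultures, at -1.17 to -0.81 and -0.90 to -0.64.

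In one-carbon metabolism 2 of 5 genes fell with platelet TGFβ, both mitochondrial, and 4 of 5 fell with purified TGFβ. Of all genes 14.7% and 14.9% were called lower. Shmt2, which takes a carbon from serine inside mitochondria, averaged 9.66 and 9.73 in platelet- and purified-TGFβ iTreg and 10.84 in Tconv, falls of 2.27-fold and 2.16-fold. Mthfd2, the mitochondrial dehydrogenase that acts next, averaged 11.01 and 10.88 against 11.93, falls of 1.89-fold and 2.07-fold. Mthfd1l, which releases formate from mitochondria, changed by -0.42 with platelet TGFβ, not called, and fell by 0.50 with purified TGFβ. That last call sat at the cutoff: it was lost with array medians centred (-0.44) and without Tconv replicate 2 (-0.49) or 3 (-0.49), or purified-TGFβ replicate 1 (-0.48) or 3 (-0.49).

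The cytosolic Shmt1 averaged 10.26 with platelet TGFβ, 9.78 with purified TGFβ and 10.57 in Tconv. It fell by 0.79 with purified TGFβ on the log2 scale and was not called with platelet TGFβ (-0.31). The Shmt1 probe sets did not read alike: 2 of 4 were called lower with purified TGFβ (-0.79 and -0.69) and 2 were not (-0.28 and -0.14), and the mean of all 4 (-0.48) missed the cutoff. Mthfd1, the cytosolic enzyme with 3 activities, was not called at -0.14 and -0.49. Without Tconv replicate 2 or purified-TGFβ replicate 3 its purified-TGFβ value was called lower, at -0.51 and -0.52, and quantile normalization gave -0.53.

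Among other effectors of ATF4, Stc2, which encodes the secreted glycoprotein stanniocalcin 2, had the deepest fall of all 33 genes. It read 5.83, 5.83 and 5.94 with platelet TGFβ, 5.87, 5.98 and 6.05 with purified TGFβ and 9.85, 10.03 and 10.01 in Tconv. The iTreg arrays overlapped each other 17.1-fold below Tconv with platelet TGFβ (log2 change -4.09 ± 0.09, adjusted p = 7.77e-11) and 16.0-fold with purified TGFβ (-4.00 ± 0.09, adjusted p = 4.06e-11). Its other probe sets fell by 4.88 and 1.09 with platelet TGFβ and by 4.48 and 1.06 with purified TGFβ on that scale.

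Pck2 encodes the mitochondrial enzyme that makes phosphoenolpyruvate from oxaloacetate. It read 7.87, 7.85 and 7.85 with platelet TGFβ, 8.89, 9.04 and 8.93 with purified TGFβ and 10.74, 10.86 and 11.03 in Tconv, in 3 separate bands. The falls were 8.13-fold (-3.02 ± 0.09, adjusted p = 9.59e-10) and 3.80-fold (-1.93 ± 0.09, adjusted p = 1.53e-08). Chac1, which degrades glutathione, read 6.66, 6.85 and 6.41 with platelet TGFβ, 7.50, 7.48 and 7.60 with purified TGFβ and 9.32, 9.49 and 9.40 in Tconv. It showed the same order without overlap, with falls of 6.81-fold (adjusted p = 7.59e-09) and 3.68-fold (adjusted p = 7.75e-08).

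Herpud1, part of the machinery that removes misfolded ER proteins, fell 1.79-fold and 1.66-fold. Xpot, which exports tRNA from the nucleus, was not called at -0.47 and -0.42, and 2 other bright Xpot probe sets stayed between 0.01 and 0.12. Its platelet-TGFβ value was called lower under quantile normalization (-0.51), without Tconv replicate 3 (-0.52) and without platelet-TGFβ replicate 3 (-0.50). Fgf21, which encodes a stress hormone, had group means of 3.86, 3.97 and 4.22 and was not called. With platelet TGFβ its change of -0.36 (adjusted p = 0.0257 in limma) missed only the fold cutoff, and with purified TGFβ it was -0.25. Vldlr, a lipoprotein receptor, had a mean under the 40th percentile of all probe sets (3.93). It was not called. Of its 5 dimmer probe sets 2 were called lower with platelet TGFβ (-0.82 and -0.50) and 1 with purified TGFβ (-0.75). The values of -0.82 and -0.75 came from a cross-hybridising Vldlr probe set.

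**Figure D4:**
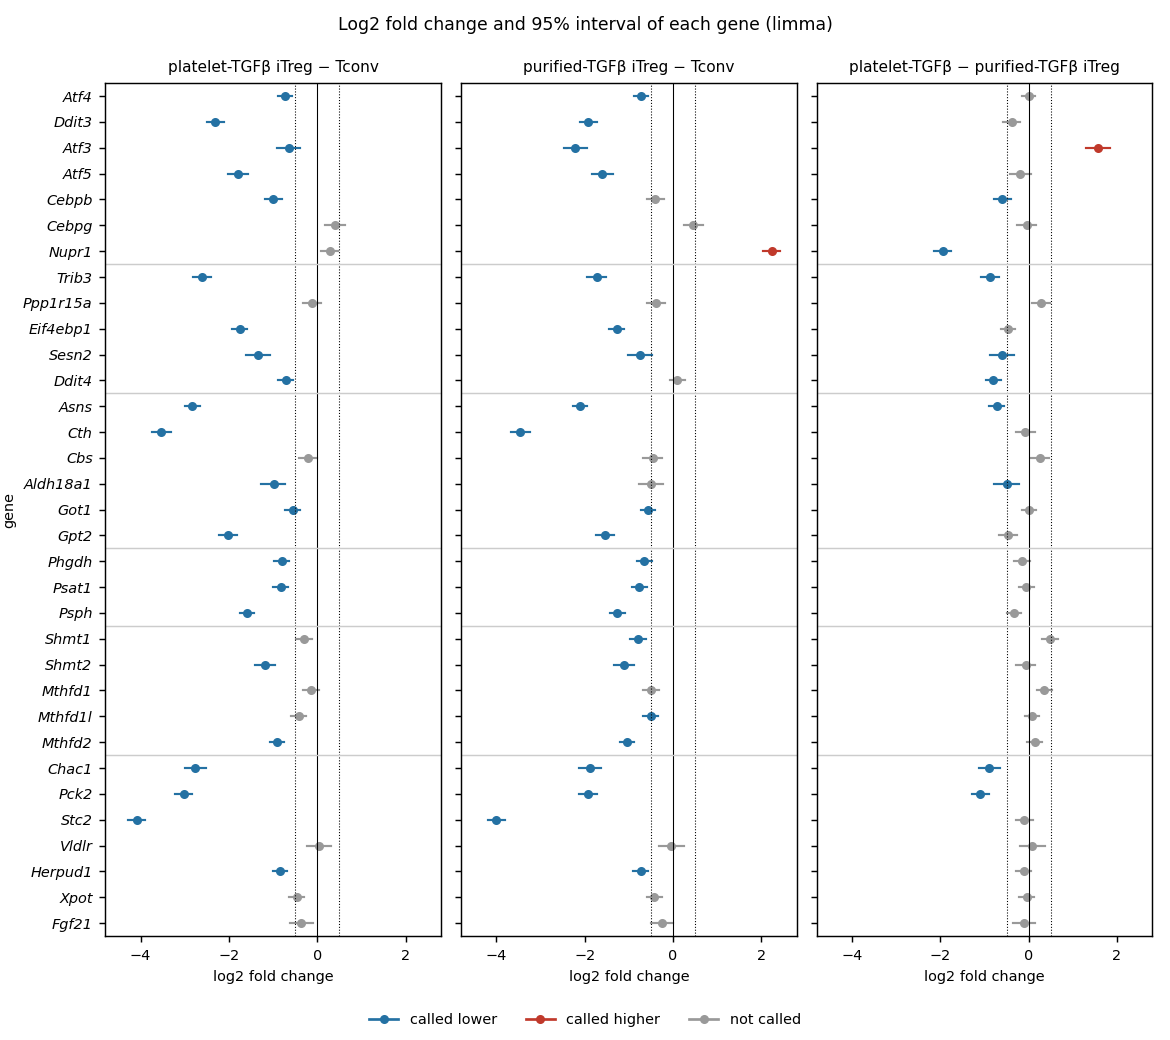
Each point is a gene's log2 fold change with its 95% interval from limma, in a panel per comparison; blue is called lower, red called higher, grey not called, and dotted lines mark 0.5 in each direction. Stc2 and Cth are farthest left against Tconv (-4.09 and -3.54 with platelet TGFβ, -4.00 and -3.46 with purified TGFβ) and near 0 between the cultures (-0.10 and -0.08).

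The comparison of platelet-TGFβ with purified-TGFβ iTreg set cultures given platelet lysate against cultures given purified TGFβ1. The source of TGFβ, its dose and the other contents of the lysate cannot be told apart in it. Of the 33 genes 10 were called, 9 lower and 1 higher with platelet TGFβ, where 4.11% of all genes were called, 2.57% lower and 1.54% higher. Arrays were all below in 16 of the genes (14.6% of all genes) and all above in 6 (13.6%). Both iTreg groups read low for Xist and high for Eif2s3y.

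Nupr1 had the widest gap, 3.87-fold lower with platelet TGFβ (log2 difference -1.95 ± 0.09, adjusted p = 2.72e-07). Among the genes lower with platelet TGFβ, Pck2 followed at 2.14-fold (-1.10 ± 0.09, adjusted p = 2.05e-05). Chac1 was 1.85-fold lower (adjusted p = 4.66e-04), Trib3 1.84-fold (adjusted p = 2.04e-04), Ddit4 1.74-fold (adjusted p = 6.73e-05) and Asns 1.66-fold (adjusted p = 1.30e-04), with no overlap between arrays for any of them. Cebpb, Sesn2 and Aldh18a1 were lower by log2 differences of -0.60, -0.61 and -0.50. Atf3 alone was higher with platelet TGFβ, 2.96-fold (1.57 ± 0.12, adjusted p = 1.28e-05).

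Some of these calls sat near the cutoff. That of Aldh18a1 was lost without purified-TGFβ replicate 2 (-0.46) or 3 (-0.47) and without platelet-TGFβ replicate 3 (-0.43), as well as under quantile normalization (-0.49). Without limma's moderation of the variances its value stayed at -0.50 and was not called (adjusted p = 0.151). The mean over probe sets ended the calls of Aldh18a1 (-0.47) and Sesn2 (-0.46). Gpt2 was not called at -0.48, but 2 of its 4 probe sets were, at -1.26 and -1.02, and the gene passed as the mean of its probe sets (-0.82) and without purified-TGFβ replicate 3 (-0.51) or platelet-TGFβ replicate 1 (-0.54). Eif4ebp1 was not called at -0.47, although its cross-hybridising probe set was at -0.55, and passed without purified-TGFβ replicate 1 (-0.52).

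Genes of the response that fell deeply against Tconv were not all among those that differed between the cultures. Stc2 differed by -0.10 (95% interval -0.28 to 0.09) and Cth by -0.08 (-0.29 to 0.14). The 3 Stc2 probe sets gave -0.40 to -0.03, and none was called. The -0.40 was that of a dimmer probe set (means of 4.52 and 4.92), so the Stc2 probe sets did not all read near 0. Whether low signal compressed these differences (iTreg means of 5.87 and 5.97 for Stc2, 5.86 and 5.94 for Cth) was not tested. Atf4 differed by 0.00 (-0.16 to 0.15), with an adjusted p of 0.991. Ddit3 read lower with platelet TGFβ on all arrays, but its difference of -0.39 (adjusted p = 0.0222) was within the fold cutoff. None of the 3 serine enzymes and none of the 5 one-carbon enzymes was called by limma, with 1 serine enzyme lower and 2 one-carbon enzymes higher at an unadjusted p under 0.05 (9.95% of all genes were lower and 9.04% higher at that p). Phgdh differed by -0.16 (-0.33 to 0.02), Psat1 by -0.06 (-0.23 to 0.11) and Mthfd2 by 0.13 (-0.03 to 0.29). Psph, at -0.34 (-0.50 to -0.18, adjusted p = 0.0181 in limma), missed only the fold cutoff. The cytosolic pair Shmt1 and Mthfd1 read higher with platelet TGFβ on all arrays, at 0.48 (adjusted p = 0.00488) and 0.35 (adjusted p = 0.025), and neither reached the fold cutoff. A second, dimmer Shmt1 probe set did, at 0.54.

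The neighbouring pathways were described from 7 lists, which partly share genes with each other. These lists too were chosen with earlier results of these data known. Their counts stand beside 14.7% of all genes called lower and 13.9% higher with platelet TGFβ, and 14.9% lower and 14.5% higher with purified TGFβ. Upstream of ATF4, the eIF2 sensors and the eIF2 machinery went both ways, with 4 of 12 genes higher and 2 lower with platelet TGFβ and 4 higher and 3 lower with purified TGFβ. Eif2ak2, which encodes the RNA-sensing kinase PKR, rose 3.18-fold and 3.53-fold. Eif2ak3, which encodes the ER stress sensor PERK, rose 1.58-fold and 2.21-fold, and Impact, an inhibitor of the amino acid sensor GCN2, rose 2.07-fold and 1.73-fold. ER chaperones and genes of the ATF6 and IRE1 branches had 6 of 23 higher and 3 lower with platelet TGFβ, and 4 higher and 5 lower with purified TGFβ. Shares of 3 or 4 genes in 23 are near those of all genes, and the list's median changes were 0.17 and 0.08. Dnajb9, a target of the IRE1 branch, rose 2.94-fold and 3.38-fold, and the ER chaperone gene Hsp90b1 rose 1.73-fold and 1.55-fold.

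The cytosolic aminoacyl-tRNA synthetases, which charge tRNA with amino acids, had 13 of 19 genes lower with platelet TGFβ and 12 of 19 with purified TGFβ, and none higher (0 also at an unadjusted p under 0.05 in limma, where 20.1% and 20.7% of all genes were higher). Sars fell 2.73-fold and 2.46-fold, Cars 2.30-fold and 2.08-fold and Yars 2.27-fold and 2.28-fold. Of the amino acid transporters 7 of 12 fell and 2 rose in each culture, and the arginine transporter gene Slc7a3 fell by 4.37 and 3.62 on the log2 scale. Slc7a3 was also lower with platelet than with purified TGFβ, by -0.75 (adjusted p = 0.00667). In the list of other reported ATF4 targets 9 of 13 fell and none rose with platelet TGFβ (1 was higher at an unadjusted p under 0.05 in limma), and 7 fell and 1 rose with purified TGFβ. Jdp2, which encodes a repressor of AP-1, fell 2.59-fold and 1.90-fold.

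Folate and methionine genes outside the 33 were mixed, with 5 of 16 higher and 5 lower with platelet TGFβ, and 4 higher and 5 lower with purified TGFβ. Aldh1l2 and Aldh1l1, the mitochondrial and cytosolic enzymes that oxidise formyl-folate, fell 2.81-fold and 1.91-fold with platelet TGFβ and 2.08-fold and 1.85-fold with purified TGFβ. Slc25a32, the mitochondrial folate carrier, rose 2.01-fold with platelet TGFβ, was not called with purified TGFβ (0.38) and was higher with platelet than with purified TGFβ by 0.63 (adjusted p = 0.00143). Of 9 purine synthesis genes 4 rose and 2 fell with platelet TGFβ, and 3 rose and 2 fell with purified TGFβ. Adss, which acts in AMP synthesis, rose 2.25-fold and 2.21-fold, while Gart fell 1.74-fold and 2.07-fold. Between the iTreg cultures limma called none of the sensor, ER, synthetase or purine genes. In the other lists 2 of 13 reported ATF4 targets, 1 of 12 transporters and 1 of 16 folate and methionine genes were called lower. Of the folate and methionine genes 1 was called higher, Slc25a32. Over all genes 2.57% were called lower and 1.54% higher. At an unadjusted p under 0.05, 3 of 12 sensor, 7 of 23 ER, 1 of 19 synthetase and 5 of 9 purine genes were higher with platelet TGFβ (9.04% of all genes), and 2, 1, 1 and 1 were lower (9.95% of all genes).

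**Figure D5:**
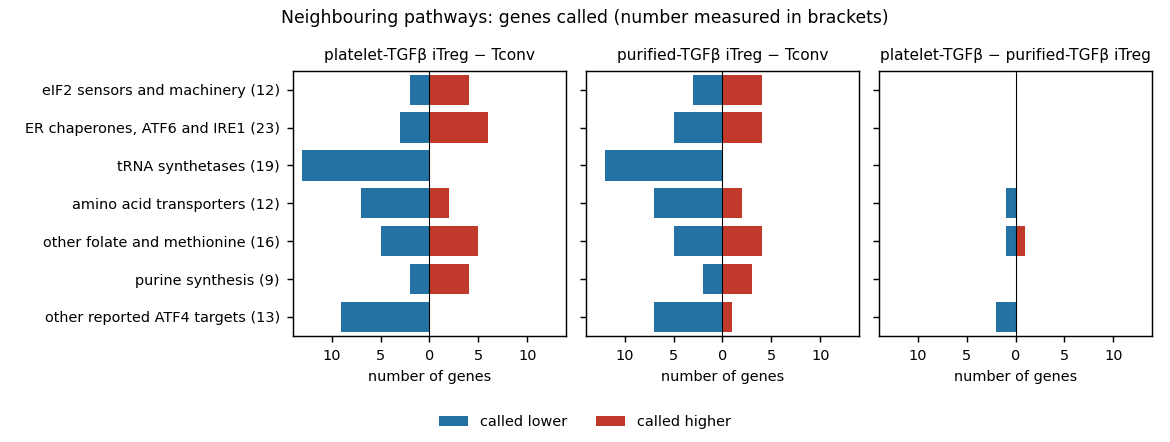
Bars count the genes of 7 neighbouring lists called lower (blue, to the left) or higher (red, to the right), in a panel per comparison, with the number measured in brackets. The synthetases had 13 and 12 genes lower against Tconv and none higher, while the ER list had genes on both sides (6 higher and 3 lower, then 4 higher and 5 lower).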

How the data were processed

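RNA of 9 samples was extracted with Trizol and hybridised to Affymetrix mouse arrays, per the labels. The authors deposited log2 expression values that the series' design text credits to Expression Console and Robust Multichip Analysis (RMA). The table has no detection calls, so no gene was called absent, and precision is limited by the 3 arrays per group. Of 45101 probe sets 64 controls were left out and 45037 were tested; 34945 had 1 gene symbol in the platform annotation, 932 had several and 9160 were not listed or had no symbol. Promoter sequences and gene identifiers came from RefSeq tables of GRCm38.p6.

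All probe sets were fitted in 1 limma model (limma 3.58.1, R 4.3.3) with a mean per group, moderated variances, two-sided tests and Benjamini-Hochberg adjustment over all of them. Confidence intervals are 95% intervals of that model. The fit was also run on simulated data in which far fewer probe sets changed than were called against Tconv. No result given here rests on that run. Tables and plots used Python 3.11.15, pandas 2.3.3 and matplotlib 3.10.9.

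The genes, the 7 lists and the cutoffs were chosen with earlier results of these data known. Array values are given for Atf4 and for the 6 called genes with the largest change per comparison, other genes by means, changes or ranges, and up to 3 genes per list by lowest adjusted p. Promoters were shown for the 6 genes of largest change with a match upstream. Exceptions, chosen after their values were seen, are single alternative probe sets and calls near a cutoff. Alternatives were 2 other scalings, leaving out the dimmest 40% of probe sets, 2 other variance models, a fit on the groups compared, the mean over a gene's probe sets, a block for the replicate number, 2 other cutoffs, and each array left out.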

Additional observations from a re-analysis of the deposited data

How the results depend on the processing

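The number of the 33 genes called was compared over 10 alternatives and with each of the 9 arrays left out. A stricter cutoff (adjusted p under 0.05 and a log2 change beyond 1) left 14 genes called with platelet TGFβ against Tconv, all 14 lower, 15 with purified TGFβ against Tconv, of them 14 lower, and 3 between the cultures, of them 2 lower. With no fold cutoff 2 genes were called higher in each comparison with Tconv, and between the cultures 16 genes were called, of them 3 higher. Centring array medians called 2 genes higher with purified TGFβ, Nupr1 and Cebpg. Leaving out single arrays gave 23 to 24 called genes with platelet TGFβ (23 to 24 lower, 0 to 1 higher), 22 to 25 with purified TGFβ (21 to 24 lower, 1 to 2 higher) and 9 to 11 between the cultures (8 to 10 lower, 1 higher). The extra gene called higher was Cebpg without Tconv replicate 1. Apart from the cutoffs, 23 of 23 called genes kept their call under every alternative with platelet TGFβ, 21 of 23 with purified TGFβ (not Shmt1 and Mthfd1l) and 8 of 10 between the cultures (not Sesn2 and Aldh18a1). No called gene changed direction under any alternative run.

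The labels give the groups the same replicate numbers, but deviations of same-numbered arrays did not correlate throughout (r from -0.123 to 0.262), so the numbers were not taken as pairs. Between the iTreg cultures each array correlated best with its own number (r 0.194, 0.262 and 0.092), a hint from the data and not from the design. With the replicate block 23, 23 and 10 genes were called in the 3 comparisons and no call changed. The median over all genes against Tconv was -0.16 and -0.17 as deposited, -0.13 and -0.13 after quantile normalization and -0.10 and -0.11 with medians centred. The median of the 33 genes lay below it by -0.69 and -0.57, -0.77 and -0.65, and -0.69 and -0.57 under these scalings. Whether differences of dim genes such as Fgf21 and Vldlr reflect expressed RNA could not be resolved without detection calls.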
